A study of Homo sapiens with 8 samples.

Results

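The response of BRCA1-null ovarian cancer cells to entinostat was measured as the difference between 2 libraries of UWB1.289 cells cultured for 24 h with 0.5 uM entinostat and 2 libraries of the same line cultured for 24 h with the vehicle DMSO (control). UWB1.289 is a human ovarian carcinoma line that lacks functional BRCA1 through a truncating mutation. The other 4 of the 8 poly(A) RNA sequencing libraries came from a BRCA1+ derivative of this line, into which BRCA1 had been put back, with 2 libraries in DMSO and 2 in entinostat. The members are all named genes that passed a filter on low counts, 17714 of 25369 genes in the table. Each group is a single line, so no group speaks for BRCA1-null tumours in general. The study describes its measurements as taken from distinct samples, which does not settle whether the libraries of a group came from separate cultures, and p-values then measure only the spread between these samples, which may be technical.

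Histone deacetylases remove acetyl groups from histone tails and work inside corepressor complexes that keep genes silent. Entinostat is a benzamide that inhibits the class I enzymes HDAC1 and HDAC3, and such inhibitors are known for raising silent or weakly expressed genes, including genes of differentiation, and for arresting the cell cycle through the CDK inhibitor gene CDKN1A. BRCA1 acts in the repair of DNA breaks by homologous recombination, and its loss is common in ovarian carcinoma.

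Total counts were 44268510 and 53549893 in the BRCA1-null control libraries and 45744240 and 42045105 in the BRCA1-null entinostat libraries. Expression is given as CPM, the usual read count scaled by library size, with library sizes normalised between samples, in the order control replicate 1, control replicate 2, entinostat replicate 1 and entinostat replicate 2. Replicate log2 CPM values correlated at 0.991 to 0.992 across genes, which are not independent replicates. BRCA1 itself was at 21.0, 22.4, 17.6 and 19.2 CPM in the BRCA1-null libraries and at 92.4 to 133 CPM in the 4 BRCA1+ libraries. Its change with entinostat in BRCA1-null cells, -0.24 ± 0.0936 (log2, SE), did not pass the test (adjusted p 0.131). The median log2 fold change of all tested genes was 0.019. Adjusted p-values come from edgeR (quasi-likelihood test, Benjamini-Hochberg adjustment over all tested genes), and a gene was called when this value was under 0.05.

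Entinostat raised more genes than it lowered, and the raised genes changed by more. Of the 17714 tested genes, 1341 were higher (7.57%) and 565 were lower (3.19%) in entinostat. A log2 fold change of at least 1 was reached by 449 higher genes (2.53%), whereas 83 lower genes (0.469%) reached -1. The median size of the change was 0.71 on the log2 scale among the higher genes and 0.37 among the lower genes. For each of the 1906 called genes the 2 control libraries did not overlap the 2 entinostat libraries, a separation that 9691 of all tested genes also showed. The counts depended on single libraries, since 512 genes were called without entinostat replicate 1, 520 without control replicate 2, 947 without entinostat replicate 2 and 1120 without control replicate 1 of the BRCA1-null cells. In all of 15 alternative fits, 333 genes (17.5% of the called genes) passed the test in the same direction, 295 of them higher and 38 lower. Of these, 135 reached a log2 fold change of 1, while ADAMTS15 was the 1 gene that reached -1.

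**Figure D1:**
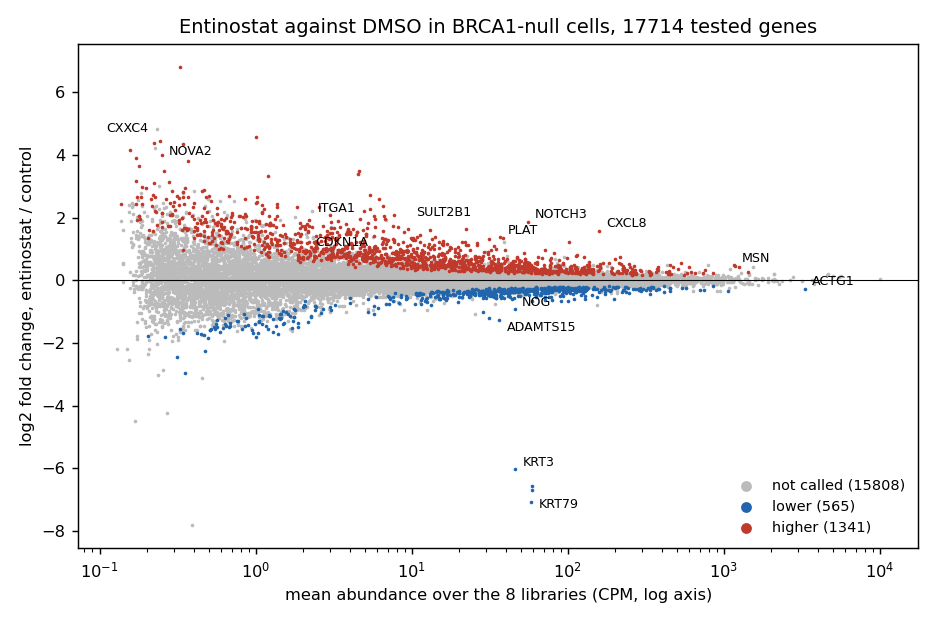
Each point is 1 of 17714 tested genes, with the mean abundance over the 8 libraries (CPM, log axis) on the horizontal axis and the log2 fold change of entinostat over control in BRCA1-null cells on the vertical axis. Red points are the 1341 genes called higher and blue points the 565 called lower, and the 4 keratin genes near -6 to -7 stand apart from all other lowered genes of their abundance.

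NOTCH3, a Notch receptor (chromosome 19, 15270444 to 15311792 on hg19), had the largest rise of the called genes above the level floor for leading genes, a log2 CPM of 3 on average. It was at 16.9 and 16.8 CPM in control and at 65.0 and 58.6 CPM in entinostat, a log2 fold change of 1.88 ± 0.0795 (3.67-fold, adjusted p 2.92e-05). SULT2B1, a sulfotransferase that conjugates cholesterol, was at 2.75, 2.63, 9.83 and 7.73 CPM and rose by 1.71 ± 0.185. SLC7A8, a transporter of neutral amino acids, was at 2.62, 2.06, 8.34 and 5.89 CPM and rose by 1.63 ± 0.238. In all of these genes both entinostat libraries lay clearly above both control libraries, with entinostat replicate 1 the higher of the pair.

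The secreted proteins among the 12 leading higher genes were CXCL8, a chemokine that attracts neutrophils, PLAT, the tissue plasminogen activator, and OLFML2A. CXCL8 (chromosome 4, 74606223 to 74609433) was at 111 and 72.5 CPM in control and at 314 and 232 CPM in entinostat, a rise of 1.58 ± 0.232 (adjusted p 0.00519). PLAT was at 27.1, 27.3, 77.9 and 62.9 CPM, a rise of 1.37 ± 0.216 (adjusted p 0.00689). Groups without overlap were a condition for leading genes, and the CXCL8 control libraries were far from each other. TUBB2B, a neuronal beta-tubulin, was at 1.60, 1.84, 5.50 and 5.17 CPM and rose by 1.62 ± 0.202. RTN2, a reticulon of the endoplasmic reticulum, was at 6.15, 5.48, 16.7 and 15.3 CPM and rose by 1.46 ± 0.147. The remaining leaders were AIM1L, BCAS4, ZNF385A and MLLT11, with rises of 1.38 to 1.60. All 12 leading higher genes passed the test in every alternative fit.

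Among abundant transcripts the gains were smaller in fold. The 5 called genes that gained the most CPM were MSN, CYR61, CLDN1, ANXA1 and MYH9, which act in cell shape, adhesion and the cortical cytoskeleton. MSN, encoding the membrane and actin linker moesin, was at 1046 and 1165 CPM in control and at 1422 and 1617 CPM in entinostat, a rise of 0.46 ± 0.0746 (adjusted p 0.00777). ANXA1, encoding the phospholipid-binding annexin A1, was at 553, 525, 809 and 772 CPM and rose by 0.55 ± 0.0547 (adjusted p 0.00124). CYR61, a secreted matricellular protein gene, rose by 0.48 ± 0.0656, CLDN1, a tight junction claudin gene, by 0.43 ± 0.0582, and MYH9, the heavy chain of non-muscle myosin, by 0.26 ± 0.0637. Of the 5, MYH9 lost its call in 6 alternative fits. ACTG1, encoding cytoplasmic gamma-actin, fell from 3095 and 3162 CPM to 2548 and 2655 CPM (-0.27 ± 0.0481, adjusted p 0.0116). EIF4G2, a translation initiation factor gene, fell from 1128 and 1117 CPM to 886 and 898 CPM (-0.33 ± 0.0576). Both lost their calls without control replicate 2 or without entinostat replicate 1, and over all fits without a library the changes were -0.31 to -0.24 for ACTG1 and -0.35 to -0.32 for EIF4G2.

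The 8 leading lower genes outside the keratin cluster fell by 0.72 to 1.27 on the log2 scale. ADAMTS15, a secreted metalloprotease that cleaves proteoglycans (chromosome 11, 130318869 to 130346539), was at 31.5 and 27.6 CPM in control and at 13.7 and 10.7 CPM in entinostat, a change of -1.27 ± 0.217 (2.41-fold lower, adjusted p 0.00948). NOG, the BMP antagonist noggin, was at 71.3, 71.2, 34.3 and 40.9 CPM (-0.92 ± 0.172). HHIP, an antagonist of hedgehog ligands, was at 31.8, 30.7, 19.5 and 16.8 CPM (-0.78 ± 0.119), and SMOC2, a matricellular protein gene, was at 7.12, 6.94, 4.24 and 4.07 CPM (-0.75 ± 0.115). For these 4 genes the control libraries lay above the entinostat libraries by more than the replicates of either group differed. CA2, a carbonic anhydrase, was at 21.0, 11.9, 8.62 and 5.53 CPM, where control replicate 1 stood far above control replicate 2, and its call (adjusted p 0.0271) was lost in 4 alternative fits. NOG, ING5 and PLEKHN1 lost their calls without control replicate 2 or entinostat replicate 1, and ST6GAL2 without entinostat replicate 2.

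**Figure D2:**
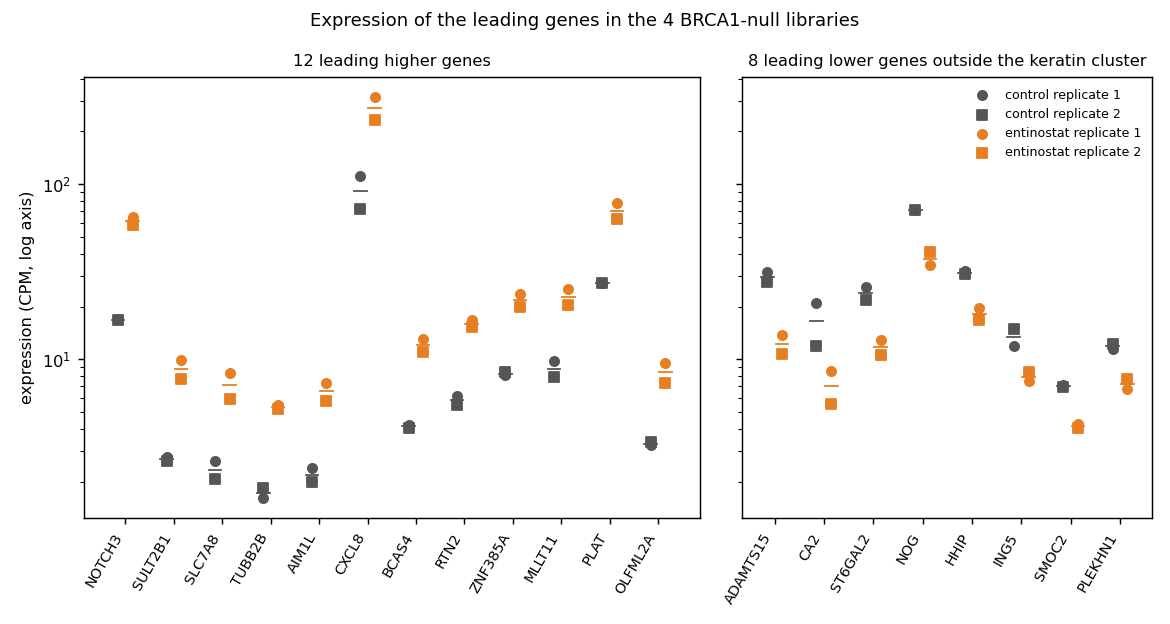
Expression in CPM (log axis) of the 12 leading higher genes and the 8 leading lower genes outside the keratin cluster in the 4 BRCA1-null libraries, with control in grey, entinostat in orange, replicate 1 as circles, replicate 2 as squares and the group mean as a short line. The entinostat libraries of NOTCH3, at 58.6 and 65.0 CPM, lie far above the controls at 16.8 and 16.9 CPM. Genes with overlapping groups were left out by the rule for leading genes.

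The promoters of the leading genes were unlike in base composition, and those of NOTCH3, CXCL8 and SLC7A8 are shown because they span that range among raised genes. That of CDKN1A, which is not a leading gene, was added as the CDK inhibitor gene named above. Each runs 5′ to 3′ from 250 bases before to 50 bases after the RefSeq start on GRCh38.p14, with motif matches on either strand in capitals. The motifs searched were the GC box GGGCGG, the CCAAT box, the TATA box written as TATAAA, and the GAS pattern of interferon-responsive genes, written as TTCNNNGAA. The windows are chr19:15200946-15201245 on the minus strand for NOTCH3, chr6:36678464-36678763 on the plus strand for CDKN1A, chr4:73740319-73740618 on the plus strand for CXCL8 and chr14:23155271-23155570 on the minus strand for SLC7A8.
NOTCH3 promoter: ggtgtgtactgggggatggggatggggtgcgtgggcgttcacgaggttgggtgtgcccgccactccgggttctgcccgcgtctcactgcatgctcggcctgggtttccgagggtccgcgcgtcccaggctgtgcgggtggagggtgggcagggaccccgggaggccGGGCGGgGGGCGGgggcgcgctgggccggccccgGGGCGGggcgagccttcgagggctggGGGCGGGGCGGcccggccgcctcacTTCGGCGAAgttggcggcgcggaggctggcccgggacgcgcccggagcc
CDKN1A promoter: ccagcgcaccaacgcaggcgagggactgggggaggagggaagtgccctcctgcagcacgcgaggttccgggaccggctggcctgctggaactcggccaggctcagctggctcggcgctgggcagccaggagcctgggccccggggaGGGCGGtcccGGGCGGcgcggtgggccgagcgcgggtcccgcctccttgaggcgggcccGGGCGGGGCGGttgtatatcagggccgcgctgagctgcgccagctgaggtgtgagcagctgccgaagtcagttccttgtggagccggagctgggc
CXCL8 promoter: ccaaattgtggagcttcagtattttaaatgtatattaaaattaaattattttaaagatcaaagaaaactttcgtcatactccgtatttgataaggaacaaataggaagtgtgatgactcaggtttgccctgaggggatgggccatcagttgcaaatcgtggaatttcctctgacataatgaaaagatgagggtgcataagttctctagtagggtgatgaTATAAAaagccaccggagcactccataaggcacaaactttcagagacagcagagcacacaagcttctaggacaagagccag
SLC7A8 promoter: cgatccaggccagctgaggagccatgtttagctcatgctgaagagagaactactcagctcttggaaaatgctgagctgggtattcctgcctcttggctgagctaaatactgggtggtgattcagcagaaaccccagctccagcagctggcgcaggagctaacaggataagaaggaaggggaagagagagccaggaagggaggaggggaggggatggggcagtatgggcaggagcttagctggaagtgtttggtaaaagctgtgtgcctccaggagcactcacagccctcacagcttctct
NOTCH3 held 5 GC box matches, some of them overlapping, and 1 GAS match, at an observed to expected CpG ratio of 0.858. CDKN1A held 4 GC box matches at a ratio of 0.722. CXCL8 held a TATAAA match that begins 31 bases before the start, no GC box match, and a ratio of 0.351. SLC7A8 held none of the 4 motifs and had a ratio of 0.0928.

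Promoters were found for 11745 of the 17714 tested genes. A GC box match was present in 66.4% of these, in 72.0% of 965 promoters of higher genes, in 64.2% of 296 promoters of genes higher by at least 1 on the log2 scale and in 73.2% of 396 promoters of lower genes. CCAAT matches were present in 35.9% of all promoters, in 32.6% for higher genes and in 40.4% for lower genes. The median CpG ratio was 0.816 over all promoters, 0.759 for higher genes, 0.684 for genes higher by at least 1 and 0.857 for lower genes. TATAAA was matched in 6.28% of all, 6.84% of higher and 3.54% of lower genes' promoters, and the GAS pattern in 6.39%, 6.11% and 3.54%. Of the 12 leading higher genes, 9 had a promoter in the table, and 7 of these held a GC box match. These matches are descriptions of sequence and were not tested.

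Genes that were nearly silent in control showed the largest folds. A control mean under 1 CPM was found for 267 of the 1341 higher genes and for 24 of the 565 lower genes, beside 3242 of all 17714 tested genes. Higher genes were thus nearly silent in control about as often as all tested genes, and lower genes less often. By length-corrected level in other libraries, the BRCA1+ controls, the median was 0.196 RPKM (CPM per kilobase of exon) for genes higher by at least 1 and 6.0 RPKM for the other higher genes. For genes lower by at least 1 it was 0.203 RPKM, about as low, and for the other lower genes 15.3 RPKM. The median was 11.7 RPKM for all lower genes and 5.33 RPKM for all tested genes. At low counts only large folds can pass the test, so this order is partly fixed by the calls. A rise of at least 2 on the log2 scale was called for 97 genes. Names in this group were chosen after their values were seen, as the 8 largest rises with an entinostat mean of at least 2 CPM and a mean log2 CPM under 3.

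SEMA6B, a transmembrane semaphorin for cell guidance, went from 0.264 and 0.460 CPM to 4.56 and 3.69 CPM, an 11.1-fold rise (3.47 ± 0.288 on the log2 scale). TESC, encoding the calcium-binding protein tescalcin, went from 0.330 and 0.276 CPM to 3.20 and 3.21 CPM (3.40 ± 0.330). KIF5C, a neuronal kinesin heavy chain, went from 0.901 and 0.865 CPM to 6.40 and 4.21 CPM (2.60 ± 0.259). All 3 were under 1 CPM in both control libraries and above 3 CPM in both entinostat libraries. SLFN11, known for making cells sensitive to agents that damage DNA in replication, was at 0.857, 1.12, 4.84 and 5.32 CPM, a 5.05-fold rise (2.34 ± 0.257, adjusted p 0.0018). CRABP2, which carries retinoic acid to its receptor, was at 2.29, 2.24, 13.1 and 7.78 CPM (2.22 ± 0.299), with the entinostat libraries unlike in size. FAM131C rose by 2.36 ± 0.150, COL8A2, a collagen VIII chain, by 2.34 ± 0.349, and SPX, a peptide hormone gene, by 2.26 ± 0.352. All 8 passed the test in every alternative fit.

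At most 3 counts in each control library were present for 19 called higher genes, and 0 called lower genes had at most 3 counts in each entinostat library. NOVA2, a neuronal RNA-binding protein of splicing, had 2 counts in both control libraries together and 44 in the entinostat libraries, a ratio per library size of 24.8 (95% exact interval 6.46 to 211). CXXC4, an inhibitor of Wnt signalling, had 2 and 42 counts, a ratio of 23.7 (6.15 to 202). ADAMTS10, a metalloprotease of microfibrils, had 3 and 36 counts, a ratio of 13.5 (4.27 to 68.6), and ITGA2B, the platelet integrin alpha chain, had 5 and 33 counts, a ratio of 7.43 (2.88 to 24.4). These intervals cover counting error only, and each control level lay at or near the floor of 3 counts per library. Calls were lost in 4 alternative fits for NOVA2, 4 for ITGA2B, 2 for ADAMTS10 and 1 for CXXC4.

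The 83 genes lower by at least 1 on the log2 scale differed from the other lower genes in several measures. Only 7 of them, the keratins KRT3, KRT4, KRT78 and KRT79 with ADAMTS15, CA2 and ST6GAL2, had a control mean of at least 8 CPM, and the other 76 lay under it. Of the 75 with a RefSeq gene class, 28% were long noncoding RNAs, beside 6.99% of all tested genes with a class and 2.73% of the lower genes with smaller changes. In 55 of the 83 (66.3%) the libraries ran in the order control replicate 2, control replicate 1, entinostat replicate 1, entinostat replicate 2 from highest to lowest. The same order was found in 82 of the other 482 lower genes (17.0%) and in 5.80% of all tested genes. Called genes all had groups without overlap, which leaves fewer possible orders than for all tested genes. In BRCA1+ cells, whose libraries are not part of this comparison, 49 of the 83 (59.0%) had a negative log2 fold change and 9 were called lower, beside 475 (98.5%) and 332 of the other 482. Over all tested genes 74.2% had the same direction in both lines. The number of genes lower by at least 1 was 208 without control replicate 1, 16 without control replicate 2, 13 without entinostat replicate 1 and 8 without entinostat replicate 2. ITGAL, CCL5, ADAMTS4 and PIWIL2, which the lists below count as lower, all followed the order given and had control means of 1.16 to 2.38 CPM.

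**Figure D3:**
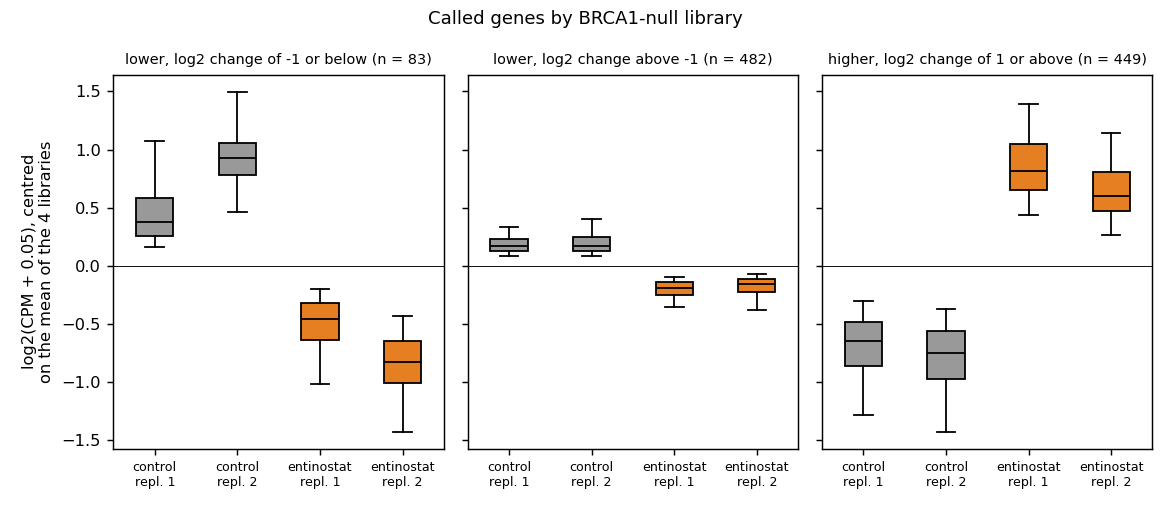
Boxes give the median and quartiles, and whiskers the 5th and 95th percentiles, of log2(CPM + 0.05) centred on the mean of the 4 BRCA1-null libraries for each gene, for 83 genes lower by at least 1, 482 other lower genes and 449 genes higher by at least 1 on the log2 scale. In the first set the medians were 0.37 and 0.93 in control replicates 1 and 2 and -0.46 and -0.83 in entinostat replicates 1 and 2, while in the second set the replicates of a group lay together.

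The keratin genes of chromosome 12 had the largest falls among called genes, but their counts cannot be taken gene by gene. KRT79 had 7551 and 9504 counts in control and 21 and 90 counts in entinostat, KRT4 had 7557, 9504, 67 and 92 counts, and KRT78 had 7584, 9527, 43 and 104 counts. KRT3 had 5883, 7394, 87 and 93 counts. The control counts of KRT4 and KRT79 were equal in replicate 2. The 8 keratin genes from KRT71 to KRT76 beside them (52937693 to 53171129) had 27 to 33 counts in each control library and 72 to 110 counts in the entinostat libraries, and KRT71 had exactly 27, 27, 72 and 90. All 12 genes have 9 exons in their canonical GENCODE transcript. Of the 32 BRCA1-null counts of these 8 genes, 25 were exact multiples of 9, whereas 11.2% of the counts of all tested genes in the same libraries were. The log2 fold changes were -7.08 to -6.03 for KRT3, KRT4, KRT78 and KRT79, which all lost their calls without entinostat replicate 1, and KRT3 and KRT4 also without entinostat replicate 2. Whether these counts measure expression of the single genes was not tested.

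Away from this cluster all called keratins were higher. Of the 31 keratin genes tested, 8 were higher (25.8%, beside 7.57% of all tested genes) and 4 lower (12.9%, beside 3.19%). Fewer were higher without control replicate 2. Without the 12 genes 3 of 19 were higher and 0 lower by edgeR. KRT13, a keratin of stratified squamous epithelium, was at 1.38, 1.27, 4.76 and 3.64 CPM (1.67 ± 0.213, adjusted p 0.00297). KRT15, a basal keratin, was at 1.78, 1.73, 3.09 and 3.04 CPM (0.81 ± 0.169), and KRT19, a keratin of simple epithelium, was at 484, 505, 667 and 669 CPM (0.43 ± 0.0542, adjusted p 0.00278). Like all called genes, the 3 had groups without overlap, and the replicates of KRT15 and KRT19 lay close together. Of 15 squamous differentiation genes tested, 4 were higher (26.7%, beside 7.57% of all tested genes) and 0 lower, with fewer higher without entinostat replicate 1. The 4 were SULT2B1, LYPD3 (1.73 ± 0.334), ALOXE3, a lipoxygenase of the skin barrier (1.37 ± 0.266), and SCEL, which encodes sciellin of the cornified envelope (0.55 ± 0.134).

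Junction genes moved in both directions, with most called members higher. Of 44 tested, 12 were higher (27.3%, beside 7.57% of all tested genes) and 4 lower (9.09%, beside 3.19%), and the median log2 fold change was 0.21. TJP3, a scaffold of tight junctions, was at 13.8 and 14.4 CPM in control and at 35.0 and 35.2 CPM in entinostat (1.31 ± 0.0712, adjusted p 0.000135). It overlaps APBA3 in position, and how the counting treated strand is not given in the sources used here. JUP, encoding plakoglobin of desmosomes and adherens junctions, was at 291, 297, 403 and 394 CPM (0.44 ± 0.0565). CDH1, encoding E-cadherin, was at 42.9, 34.8, 60.7 and 48.1 CPM (0.49 ± 0.125, adjusted p 0.0389), and its groups were separated by less than its replicates differed. DSP, the desmosome plaque protein desmoplakin, fell from 678 and 649 CPM to 524 and 541 CPM (-0.32 ± 0.0459, adjusted p 0.00482). ESRP2, an epithelial splicing factor, fell from 49.95 and 50.9 CPM to 35.9 and 35.8 CPM (-0.49 ± 0.0632), PKP3 fell (-0.35 ± 0.0692), as did MARVELD3 (-0.66 ± 0.123). TJP3, JUP, CDH3, CLDN1, DSP and ESRP2 passed the test in every alternative fit. The higher count was 4 without control replicate 2.

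Mesenchymal genes were measured beside these. Of 29 tested, 6 were higher (20.7%, beside 7.57% of all tested genes) and 1 lower, and the higher count was 3 without entinostat replicate 2. VIM, the intermediate filament of mesenchymal cells, rose from 199.6 and 201 CPM to 298 and 273 CPM (0.51 ± 0.0712, adjusted p 0.00417), and SNAI1, a repressor of E-cadherin, rose from 3.49 and 2.30 CPM to 7.64 and 5.24 CPM (1.18 ± 0.238). COL1A1, a collagen I chain, rose from 9.03 and 9.07 CPM to 22.2 and 17.5 CPM (1.14 ± 0.129). FOXC1, a transcription factor, fell from 17.6 and 17.2 CPM to 10.8 and 13.6 CPM (-0.52 ± 0.112). COL1A1 and VIM were called in every alternative fit, whereas SNAI1 was not.

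Genes of adhesion to the matrix were measured as integrins and laminins. Of 38 tested, 11 were higher (28.9%, beside 7.57% of all tested genes) and 2 lower (5.26%, beside 3.19%). ITGA1, the alpha chain of a collagen receptor, was at 3.23, 3.33, 10.8 and 10.7 CPM (1.71 ± 0.139, adjusted p 0.000806), with replicates nearly equal, and it overlaps PELO. ITGB3, a beta chain of vitronectin receptors, was at 89.8, 87.1, 153 and 141 CPM (0.73 ± 0.0580). LAMB3 and LAMA3, chains of laminin-332, rose by 0.78 ± 0.150 and 0.43 ± 0.0817. The 2 lower members, ITGAL and ITGAX, are leukocyte integrins with control means of 1.16 and 2.37 CPM. The higher count was 4 without control replicate 2, and ITGA1 and ITGB3 passed in every fit. Among 42 matrix protease genes, 8 were higher (19.0%, beside 7.57%) and 2 lower (4.76%, beside 3.19%). PLAUR, the urokinase receptor, was at 59.6, 59.5, 82.4 and 85.9 CPM (0.50 ± 0.0652), and RECK, an inhibitor of metalloproteases anchored in the membrane, was at 3.71, 4.82, 8.28 and 8.40 CPM (0.95 ± 0.141).

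Neuronal genes held the most higher members by count, in one of the longest lists, while 6 lists had a larger share. Of 61 tested, 15 were higher (24.6%) and 1 lower, with a median log2 fold change of 0.44, beside 7.57% higher and a median of 0.019 over all tested genes. Of the 25 synaptic and secretory genes among them, 9 were higher. SV2A, a synaptic vesicle protein, was at 0.791, 0.754, 3.99 and 2.35 CPM (2.05 ± 0.324), SYN1, encoding synapsin I, at 0.374, 0.276, 0.938 and 0.934 CPM (1.54 ± 0.379) and KCNH2, a potassium channel gene, at 0.813, 0.662, 2.92 and 1.63 CPM (1.65 ± 0.336). These 3 remained at low levels also in entinostat. L1CAM, an adhesion molecule of neurons and carcinomas, was at 210.4, 192, 300.4 and 277 CPM (0.52 ± 0.0709). TUBB3, a neuronal beta-tubulin, fell from 88.1 and 79.1 CPM to 68.7 and 58.4 CPM (-0.39 ± 0.0912). REST, the repressor of many of these genes, was not called. The higher count was 4 without control replicate 2, and CACNA1A and L1CAM were among the members that passed in every fit.

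In the Notch pathway all called members were higher, 7 of 41 tested (17.1%, beside 7.57% of all tested genes). Receptors transmit a signal after binding of ligands on neighbouring cells and cleavage by gamma-secretase. Beside NOTCH3, the receptor NOTCH2 was at 284, 286, 317 and 333 CPM (0.19 ± 0.0489, adjusted p 0.0434), and its call was lost in 12 alternative fits. The ligand gene DLL3, whose product holds Notch back inside the cell, was at 7.43, 6.77, 14.2 and 11.9 CPM (0.89 ± 0.120). APH1B, a subunit of gamma-secretase, was at 2.18, 1.53, 6.16 and 4.33 CPM (1.53 ± 0.255). HES7, a transcriptional target, was at 9.60, 11.8, 20.03 and 24.9 CPM (1.06 ± 0.270), 1 of 8 targets tested that was called. DTX4 and NUMBL, modifiers of the pathway, rose by 1.07 ± 0.283 and 0.37 ± 0.0850. NOTCH3 and DLL3 passed in every alternative fit, and the count was 2 without entinostat replicate 1.

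Among inflammatory genes under NF-kB, nearly all called members were higher. Of 45 tested, 13 were higher (28.9%, beside 7.57% of all tested genes) and 1 lower (2.22%, beside 3.19%), with a median log2 fold change of 0.37. IL1A, an alarmin cytokine, was at 23.4, 18.0, 43.3 and 39.2 CPM (1.00 ± 0.121, adjusted p 0.00251), and IL1RN, the antagonist of the IL-1 receptor, was at 2.44, 1.21, 7.04 and 4.74 CPM (1.74 ± 0.307, adjusted p 0.00959). PTGS2, the inducible cyclooxygenase, was at 0.374, 0.276, 1.19 and 0.838 CPM (1.67 ± 0.361). TNFAIP2, induced by TNF, was at 105, 99.0, 190.1 and 169 CPM (0.81 ± 0.0815, adjusted p 0.00124). The feedback inhibitors NFKBIA and TNFAIP3 rose by 0.30 ± 0.0672 and 0.49 ± 0.103. The member called lower was CCL5, a chemokine for T cells, at 1.87, 2.89, 1.34 and 0.934 CPM. CXCL8, IL1A and TNFAIP2 passed in every alternative fit, and the higher count was 3 without entinostat replicate 1.

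Interferon pathway genes were called about as often as other genes. Of 79 tested, 5 were higher (6.33%, beside 7.57% of all tested genes) and 2 lower (2.53%, beside 3.19%), at a median of 0.033, and of 37 antiviral effector genes 1 was called. Both counts over the list were 0 by edgeR without entinostat replicate 1. ISG20, an antiviral exonuclease, was at 6.99, 6.09, 14.8 and 10.3 CPM (0.95 ± 0.173), NLRC5, the activator of MHC class I genes, at 2.29, 2.30, 4.39 and 4.33 CPM (0.93 ± 0.200) and IFI30, a lysosomal reductase of antigen processing, at 38.2, 30.9, 57.4 and 49.2 CPM (0.63 ± 0.114). MAVS, the adaptor of RNA sensing, fell (-0.27 ± 0.0542). Several antiviral genes differed more between replicates than between treatments. MX1 was at 13.8 and 1.89 CPM in control and at 5.97 and 2.42 CPM in entinostat, OAS2 at 21.8, 2.89, 12.1 and 5.12 CPM, and IFI44 at 20.6, 9.97, 16.5 and 12.5 CPM. Replicate 1 lay above replicate 2 in both treatments for these genes and for OAS3, IFITM1 and IRF9, none of which was called (adjusted p 0.521 to 0.977). IFNG had 0 counts in all libraries, which allows up to 0.0552 to 0.0718 CPM in the BRCA1-null libraries. Among 26 immune ligands and death receptors 3 were higher (11.5%, beside 7.57%), including CD274, the checkpoint ligand PD-L1, at 4.29, 4.32, 7.59 and 8.31 CPM (0.88 ± 0.126, adjusted p 0.00466).

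Among genes that write and read histone acetylation, all called members were lower. Of 20 acetyltransferase and acetyl lysine reader genes tested, 7 were lower and 0 higher by edgeR (the median log2 fold change was -0.20), beside 3.19% lower over all tested genes. CREBBP and EP300, the paralogous coactivators CBP and p300, were at 77.0, 75.2, 55.8 and 59.8 CPM (-0.40 ± 0.0607, adjusted p 0.0061) and at 91.4, 92.8, 67.5 and 78.9 CPM (-0.33 ± 0.0876, adjusted p 0.0438). KAT2A, KAT5 and KAT6B fell by 0.39, 0.41 and 0.44 on the log2 scale. All 7 calls were lost without entinostat replicate 1. Of 41 deacetylase and corepressor genes, 3 were higher (7.32%, beside 7.57% of all tested genes) and 3 lower (7.32%, beside 3.19%). The higher share was thus near that of all tested genes and the lower share above it. Each count fell in fits without 1 library, and each was 1 with only the BRCA1-null libraries. HDAC1, a target of the drug, rose from 177 and 179 CPM to 219 and 224 CPM (0.32 ± 0.0557, adjusted p 0.0101), whereas the changes of HDAC3, 0.11 ± 0.0598, and HDAC2, 0.061 ± 0.0573, did not pass. MBD3 of the NuRD complex fell (-0.47 ± 0.0823), as did SIRT1 (-0.33 ± 0.0797). Of 41 histone genes tested 0 were called by edgeR. Of 73 histone genes of the genomic clusters only 30 passed the filter, and how well poly(A) libraries measure them was not tested. H1F0, a linker histone gene often used as a marker of HDAC inhibition, changed by 0.20 ± 0.111 (adjusted p 0.271).

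**Figure D4:**
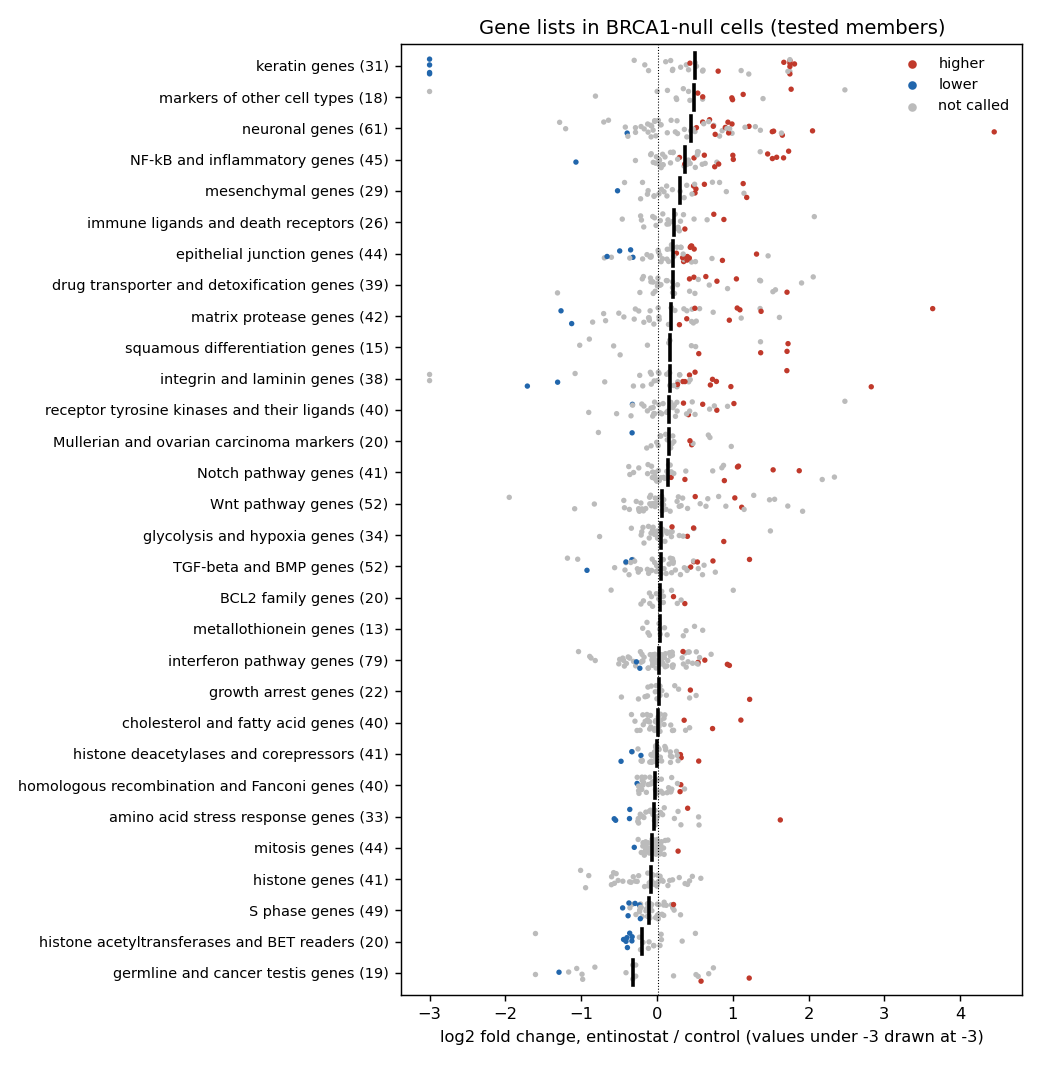
Log2 fold change of entinostat over control in BRCA1-null cells (values under -3 drawn at -3) for each tested member of 30 gene lists, with the number tested in brackets, called members in red or blue and the median of the list as a black bar. The neuronal list has 15 red points, and all 7 called points of the acetyltransferase list are blue.

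Among cell cycle genes, called members were few outside the S phase list. CDKN1A, encoding the CDK inhibitor p21, was at 4.86 and 3.66 CPM in control and at 11.6 and 7.95 CPM in entinostat, a rise of 1.22 ± 0.204 (adjusted p 0.00863) that was lost without control replicate 2 and with only the BRCA1-null libraries, at log2 fold changes of 0.91 to 1.46 over the fits without a library. CDKN2B, encoding p15, was the other of 22 growth arrest genes called (9.09% higher, beside 7.57% of all tested genes). Its call (adjusted p 0.0496) was lost in 12 alternative fits. Of 49 S phase genes, 6 were lower (12.2%, beside 3.19% of all tested genes) and 1 higher, at a median of -0.10, and the lower count was 1 without control replicate 2. RRM2, the ribonucleotide reductase subunit that supplies deoxynucleotides, was at 165, 154, 120.3 and 124 CPM (-0.38 ± 0.0561, adjusted p 0.0052) and passed in every alternative fit. GINS4, of the replicative helicase, fell (-0.45 ± 0.0717), as did its partners MCM4 (-0.29 ± 0.0598) and MCM7 (-0.22 ± 0.0508). Of 44 mitosis genes 1 was higher and 1 lower (2.27% each). Of 40 homologous recombination and Fanconi genes 2 were higher (5%) and 1 lower (2.5%), with FANCA at -0.26 ± 0.0612. These shares lay under the 7.57% higher and 3.19% lower of all tested genes.

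The counts of the remaining lists also moved with single libraries, and without entinostat replicate 1 the higher count was 2 for receptor tyrosine kinase genes, 1 for TGF-beta genes, 1 for glycolysis genes and 2 for drug transporter genes. For the shares that follow, 7.57% of all tested genes were higher and 3.19% lower. Of 40 receptor tyrosine kinase genes and ligands, 5 were higher (12.5%) and 1 lower (2.5%). The higher ones included HBEGF, an EGF receptor ligand, at 22.9, 19.4, 37.8 and 35.2 CPM (0.79 ± 0.100), and FGFR4 (1.01 ± 0.168). Of 52 TGF-beta and BMP genes, 5 were higher (9.62%), such as the ligand gene GDF15 (1.22 ± 0.308), and 3 were lower (5.77%). The lower ones were NOG, SKI, a repressor of SMAD proteins (-0.41 ± 0.0581), and the receptor gene TGFBR1 (-0.33 ± 0.0872). Of 33 amino acid stress response genes, 2 were higher (6.06%), both of them transporters, and 4 lower (12.1%). ATF5, a stress transcription factor, was at 69.4, 65.9, 46.6 and 44.9 CPM (-0.56 ± 0.0676, adjusted p 0.00246), although it overlaps NUP62 and IL4I1, and SLC7A5, a leucine transporter, was at 419, 423, 315 and 341 CPM (-0.36 ± 0.0725). Of 34 glycolysis and hypoxia genes 4 were higher (11.8%), with ENO2, the neuronal enolase, at 15.1, 15.5, 29.6 and 26.7 CPM (0.88 ± 0.0868). Of 39 drug transporter and detoxification genes 6 were higher (15.4%), including ABCC3, an efflux pump (0.64 ± 0.0634), and HMOX1, heme oxygenase (0.79 ± 0.153). Of 40 cholesterol and fatty acid genes 3 were higher (7.5%), including ELOVL6 (0.73 ± 0.0878). Of 52 Wnt genes 3 were higher (5.77%), LEF1, TCF7L1 and DKK3. Of 20 BCL2 family genes 2 were higher (10%), BAK1 (0.37 ± 0.0707) and BCL2L1 (0.22 ± 0.0583). Their calls were lost in 5 alternative fits for BAK1 and in 12 for BCL2L1. Of 19 germline and cancer testis genes tested, 2 were higher (10.5%) and 1 lower (5.26%). Of 13 metallothionein and metal response genes tested, 10 of them metallothioneins, 0 were called by edgeR.

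The line's own markers and those of other cell types were measured in the same libraries. Of 20 Mullerian and ovarian carcinoma markers, KRT19 and CLDN4 were higher (10%, beside 7.57% of all tested genes) and LYPD1 lower (5%, beside 3.19%). Of 29 markers of other cell types 18 were tested, and 6 were higher (33.3%, the highest share of the 30 lists, beside 7.57% of all tested genes) and 0 lower by edgeR. The higher count was 1 without entinostat replicate 1. The summed level of 8 fibroblast markers was 18.7 to 20.7 CPM in control and 34.9 to 47.1 CPM in entinostat, led by THY1 and COL1A1, with 3 to 4 markers at 0. The 7 endothelial markers summed to 37.1 to 54.5 CPM and 75.6 to 93.2 CPM, led by CDH5. The 10 leukocyte markers summed to 23.6 to 28.4 CPM and 30.3 to 37.9 CPM, led by CD68, with 3 to 4 at 0, and the 4 mesothelial markers to 15.3 to 17.1 CPM and 21.5 to 23.4 CPM. Their part in the results was not tested.

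The same genes were then read in BRCA1+ cells, a comparison that shares no library with the one in BRCA1-null cells. The filter, the normalisation and the estimated spread of each gene were shared, so calls in both lines were not independent. In BRCA1+ cells, entinostat raised 8.15% and lowered 6% of the tested genes. Of the 1341 genes higher in BRCA1-null cells, 1321 (98.5%) had a positive log2 fold change in BRCA1+ cells and 872 were called higher there. The direction was the same in both lines for 74.2% of all tested genes and for 71.4% of the genes not called. Of the 565 lower genes, 524 (92.7%) had a negative value, beside the same 74.2%, and 341 were called lower. Their median log2 fold changes in BRCA1-null and BRCA1+ cells were 0.71 and 0.67 for the higher genes and -0.37 and -0.34 for the lower genes. Of the 333 genes called in every alternative fit, 310 were called in the same direction in BRCA1+ cells. The difference between the lines was called for 0 genes by edgeR's quasi-likelihood test (smallest adjusted p 0.660) and for 11 genes by the DESeq2 Wald test. By the former, 827 of 17714 tested genes had an unadjusted p under 0.05. This is under a share of 0.05, which is expected without any difference. The count was 469 by the DESeq2 Wald test, and 1505, above that share, with the replicate number as a block. With 2 libraries per group these counts do not settle whether the lines respond differently.

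SLC7A8 and ADAMTS15 changed less in BRCA1+ cells by their fitted values, without a called difference. SLC7A8 went from 38.0 and 30.3 CPM to 47.7 and 43.8 CPM in BRCA1+ cells, a log2 fold change of 0.42 ± 0.138, beside 1.63 ± 0.238 in BRCA1-null cells. The BRCA1+ controls of SLC7A8 therefore lay above the level that BRCA1-null cells reached in entinostat. ADAMTS15 had -0.47 ± 0.188 beside -1.27 ± 0.217. NOTCH3 rose in both lines, by 2.28 ± 0.0773 in BRCA1+ cells, as did TJP3, by 1.26 ± 0.0680, and SEMA6B, by 3.51 ± 0.194.

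**Figure D5:**
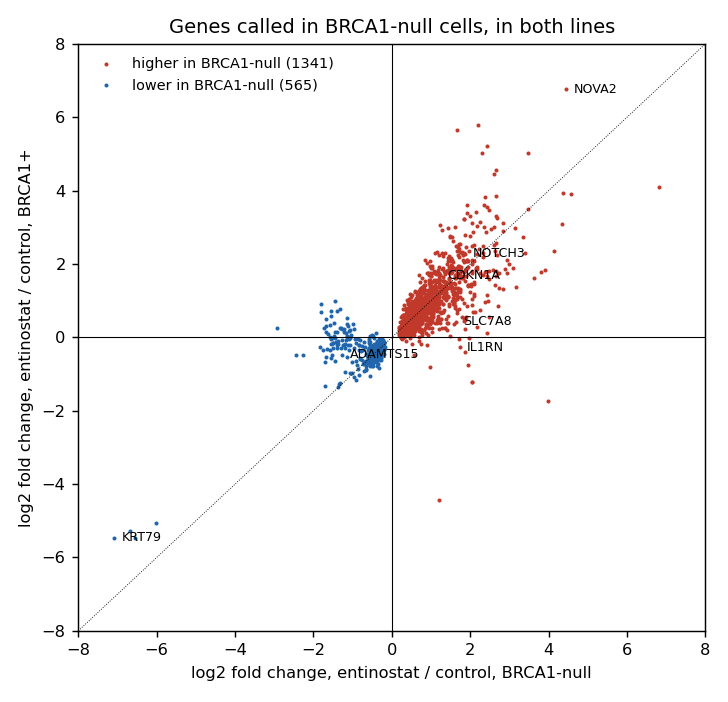
Log2 fold change of entinostat over control in BRCA1-null cells (horizontal axis) and in BRCA1+ cells (vertical axis) for the 1906 genes called in BRCA1-null cells, with 1341 higher genes in red, 565 lower genes in blue and a dotted line of equal change. Most red points lie in the upper right, with 1321 above 0 in BRCA1+ cells, and the blue points left of -1 are spread around 0 on the vertical axis except the keratins.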

How the data were processed

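Poly(A) RNA sequencing libraries of UWB1.289 cells and of their BRCA1+ derivative were grouped by the titles of the samples. The authors deposited raw counts of reads per gene, aligned to hg19 with TopHat per the labels, without normalisation. How strand and reads with several positions were counted is not given in the sources used here. Gene positions and exon lengths came from the same table. A nameless entry held 0 counts, and the share it takes is 0.

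Counts were tested with edgeR 4.0.16 in R 4.3.3 (filterByExpr over the 4 groups, trimmed mean of M values, quasi-likelihood fit with legacy set to FALSE on all 8 libraries, 4 residual degrees of freedom, two-sided tests). The SE is the absolute log2 fold change divided by the square root of the F statistic. The biological coefficient of variation was 9.04%. Total counts of the 8 libraries ranged from 31900158 to 53549893. A floor of 3 counts per library, 0.0552 to 0.0946 CPM, and all intervals cover counting error only.

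Gene lists, the rule for named genes and the genes shown were chosen with earlier results of these data known. Named genes were the 12 largest changes per direction among called genes whose log2 CPM averaged 3 or more and whose groups do not overlap, the 5 largest differences in CPM per direction, up to 3 called genes per list and direction, up to 6 genes from the floor in control, and genes of the study's text. Further called list members were named after their values were seen. Alternatives were scaling by upper-quartile or DESeq2 size factors, testing without a filter, a filter of 1 CPM in 4 libraries, the DESeq2 1.42.0 Wald test, only the BRCA1-null libraries, the replicate number as a block and the omission of each library. The steps were tested on simulated data. Promoters were taken from RefSeq on GRCh38.p14 and exon numbers from GENCODE on GRCh37.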

Additional observations from a re-analysis of the deposited data

How the results depend on the processing

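The number of called genes in BRCA1-null cells was 693 (509 higher, 184 lower) with only the BRCA1-null libraries, where fewer samples estimate the spread. It lay between 512 and 1595 when a library was left out, with 422 to 1172 higher and 71 to 486 lower genes. Changes of 1 or more on the log2 scale in either direction were called for 532 genes, for 286 with the stricter filter, 202 with only the BRCA1-null libraries, 335 with the DESeq2 Wald test and 187 to 509 without a library. The genes called in the same direction in both lines numbered 1213, and 422 to 746 without a library. The difference between the lines was called for 11 genes by the DESeq2 Wald test and for 1 with the replicate block. No source used here says that the replicate numbers pair the samples, and they were not taken as pairs. Deviations of same-numbered libraries correlated positively in all 6 pairs of groups, at 0.0523 to 0.287. The value was 0.200 between control and entinostat of BRCA1-null cells. Whether same-numbered libraries share a factor was not tested. With the replicate block 3641 genes were called (2299 higher, 1342 lower), and 2402 in both lines. The share of higher genes among those called was 70.4%, and it was 63.1% with the block, 56.6% without replicate 1 and 81.2% without replicate 2 of BRCA1-null control and 86.1% without replicate 1 of BRCA1-null entinostat. Leaving out the 12 keratin genes, chosen after seeing the data, gave 1884 called genes (1328 higher, 556 lower). Of 211 named called genes, 57 kept their call in all fits and 0 reversed. Signs turned in 8 named genes, none of them called. Over the fits without a library the log2 fold change ran from -0.60 to 1.37 for CXCL10, -0.0089 to 0.11 for HDAC2, -0.51 to 0.52 for IFI44, -0.46 to 0.53 for IFITM1, -0.42 to 0.35 for IRF9, -1.69 to 1.15 for MX1, -1.32 to 1.57 for OAS2 and -0.43 to 0.66 for OAS3. The highest values were those without replicate 1 of BRCA1-null control, except for HDAC2. The causes were not tested, and fits without a library differ both in the number of samples and in which samples they hold.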
